A study of Mus musculus with 36 samples.

Results

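The Affymetrix annotation gives 932 of 45037 probe sets several gene symbols joined together, because the same probes match RNA of related genes or of overlapping transcripts. The results concern the 37 of these 932 (3.97%) whose group mean log2 value in newly transcribed RNA stood at least 1 above mock at 150-180 min after IFN alpha or IFN gamma. By the same threshold 1.82% of the 34945 probe sets with 1 symbol were induced. The 37 carry 67 distinct symbols in 32 symbol sets, sorted here into 15 families: interferon-inducible GTPases, the Csprs cluster, Isg15, apolipoprotein L, the Ifi200 genes, Trim30 and Trim34, MHC class I, the proteasome activator Psme2, purine nucleoside phosphorylase, Ly6c, complement, Hoxd, Acaa1, 3 pairs of unlike symbols, and a transcript known by its clone name. For 21 of the 37 no probe set with just 1 of the symbols passed the low-value filter, so Tgtp1, Tgtp2, the Csprs cluster, Apol9a, Apol9b, Ifi203, Gvin1, Ifi211 with Ifi205, Trim34, H2-T23, H2-T10, H2-T22, the H2-Q genes listed later, Ly6c1, Psme2 and C4b are seen here through shared probe sets alone. A shared probe set gives 1 value that cannot be divided among its listed genes, and a listed gene need not contribute to it. In mock at 30-60 min a Plec probe set (1419835_s_at) had a mean of 10.43, while Parp10/Plec (1452178_at) had 3.94.

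The RNA came from NIH-3T3, an established mouse fibroblast line of embryonic origin for which the labels give no engineered allele. New transcripts were marked by 4-thiouridine (4sU), which is taken up and put into RNA during a labelling window. The 12 groups had 3 arrays each: fresh medium with mock, with 100 U/ml IFN alpha or with 100 U/ml IFN gamma, each labelled at 0-30, 30-60 or 150-180 min after the medium change with 500 µM 4sU, or at 0-60 min with 200 µM 4sU. All groups therefore share the medium change and 4sU, and both interferons were set against the same mock arrays. The labels number the arrays but do not say that they came from separate cultures, so the p-values measure the spread between arrays, whose number limits the precision.

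Levels in bulk RNA cannot tell fewer cells of a type from less RNA per cell. Fibroblast markers were high (all 10 measured passed the filter, with a median log2 value of 11.8), 1 of 9 leukocyte markers passed it (Cd14 at 6.17; median 2.79), and 0 of 4 epithelial and 0 of 4 endothelial markers did. Arrays of a group correlated at 0.9504 or higher across probe sets in 11 of the 12 groups. In the mock group at 0-60 min, array 1 had correlations of 0.9046 and 0.9038 with arrays 2 and 3, while those 2 reached 0.9854, so results of that window are also given without it.

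Interferons are secreted proteins by which cells warn their neighbours of infection. IFN alpha and IFN gamma act through separate receptors. Genes induced by IFN alpha often carry the interferon-stimulated response element (ISRE) in their promoters, and genes induced by IFN gamma often carry gamma-activated sites (GAS). Many of the induced genes belong to families that arose by local duplication in the mouse genome. Examples are the GTPases, the Ifi200 genes and MHC class I. Near-identical copies can give a probe set several symbols.

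The shared symbols were mostly neighbours. In the RefSeq gene table (GRCm38.p6, used for names and neighbourhood; 66 of 67 gene IDs matched), the genes of 34 probe sets lay on 1 chromosome, and those of 21 lay within 8 positions of each other in gene order. In 3 probe sets the genes lay on 2 chromosomes: Isg15 and Gm9706, Psme2 and Psme2b, and Phactr1 and Chst11. Probe sets with the suffixes _a_at, _s_at and _x_at made up 29.7%, 18.9% and 10.8% of the 37, against 15.7%, 15.6% and 16.2% of all 932. The others (40.5%) had the plain suffix _at.

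RefSeq promoters, windows of 300 bases that span each gene's start, were found for 41 of the 67 genes (53 promoters). The ISRE core was searched as GAAA, 2 bases of any kind and GAAA again, and GAS as TTCNNNGAA, on both strands and counting overlapping matches; on the opposite strand the core appears as TTTC, 2 bases and TTTC. The ISRE core was present in 15 of the 41 genes, or 19 of 53 promoters (35.8%), against 3.44% of all 32851 promoters of the table, and GAS in 7 genes, or 7 promoters (13.2%), against 8.3%. Near-identical copies count separately in these shares, and a match is a run of letters, not a site shown to be bound. The stretches that follow are the reference sequence of GRCm38.p6 from RefSeq, read 5′ to 3′ on the gene's strand, each ending at or before the base ahead of the start, with matches in capitals. All of them hold a match, and promoters without a match were not printed. Shown are some from probe sets with the largest and the earliest responses, and 2 near-identical pairs of neighbours. The last 2 are genes of probe sets with higher levels under IFN gamma. Hoxd3, which shares the probe sets of Hoxd4, had neither motif. Neither motif was found for Gm7609 (the only Csprs cluster gene with a promoter), Trex1, Atrip, Pnp, H2-K1 or H2-D1. Each of these is listed by a probe set called with IFN alpha at 0-30 min. In both Tgtp promoters a GAS match stands 2 bases ahead of an ISRE core, and the run of 24 bases that both stretches share around the GAS match ends inside that core.
Tgtp1, chr11:48992247-48992366 (minus strand): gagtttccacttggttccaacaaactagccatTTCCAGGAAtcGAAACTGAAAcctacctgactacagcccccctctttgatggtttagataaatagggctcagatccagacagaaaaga
Tgtp2, chr11:49064213-49064332 (minus strand): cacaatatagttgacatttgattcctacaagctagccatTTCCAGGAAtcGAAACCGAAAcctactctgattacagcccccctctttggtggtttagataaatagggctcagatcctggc
Isg15, chr4:156200819-156200938 (minus strand): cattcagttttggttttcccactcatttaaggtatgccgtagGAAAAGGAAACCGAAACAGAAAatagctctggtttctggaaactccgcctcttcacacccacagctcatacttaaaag
Apol9a, chr15:77411101-77411160 (minus strand): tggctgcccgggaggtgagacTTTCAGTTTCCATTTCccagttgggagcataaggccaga
Apol9b, chr15:77729014-77729071 (plus strand): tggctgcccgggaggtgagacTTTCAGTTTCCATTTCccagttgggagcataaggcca
Trim30a, chr7:104465194-104465253 (minus strand): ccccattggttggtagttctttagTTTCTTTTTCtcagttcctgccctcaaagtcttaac
Trim30d, chr7:104507855-104507914 (minus strand): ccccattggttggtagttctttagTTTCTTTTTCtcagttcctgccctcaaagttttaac
Hoxd4, chr2:74721758-74721817 (plus strand): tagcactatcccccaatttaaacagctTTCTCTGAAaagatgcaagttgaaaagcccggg
C1rb, chr6:124570285-124570344 (plus strand): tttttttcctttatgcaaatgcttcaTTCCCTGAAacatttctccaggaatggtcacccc

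The Isg15 stretch holds 3 overlapping ISRE cores. The Apol9a and Apol9b stretches share an unbroken run of 58 bases with 2 overlapping cores, and those of Trim30a and Trim30d a run of 54 bases with 1 core. In a global alignment of the most alike promoters of each pair, 93.7% and 92.3% of the 300 bases were identical, against 74.7% for Tgtp1 and Tgtp2 and 54.7% for Phactr1 and Chst11, which are no relatives. Among the probe sets with a promoter, an ISRE core was found for 12 of the 24 with the larger 150-180 min response to IFN alpha and for 2 of the 10 with the larger response to IFN gamma. For GAS the numbers were 1 of 24 and 5 of 10. The 5 are Tgtp1/Tgtp2, both Hoxd3/Hoxd4 probe sets, C1ra/C1rb and Phactr1/Chst11, and these counts are a description of few genes. The Hoxd match is in the Hoxd4 promoter and not in that of Hoxd3, so 1 promoter counts for both Hoxd probe sets. The Phactr1 match is in 1 of its 3 promoters.

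At 150-180 min, the window that chose them, 30 probe sets stood at least 1 above mock with IFN alpha and 30 with IFN gamma, 23 of them with both. The response was larger with IFN alpha in 26 and with IFN gamma in 11. Nothing is tested in that window. Tgtp1/Tgtp2 was highest with both interferons, at 7.86 (IFN alpha) and 9.81 (IFN gamma) above mock. With IFN alpha the Csprs probe set 1435792_at (5.95), Isg15 (5.67), Csprs 1422141_s_at (5.13), Apol9a/Apol9b (4.88) and Csprs 1422140_at (4.79) came next. With IFN gamma it was Gvin1 (4.34), Ifi203 (4.21), Apol9a/Apol9b (3.87), Parp10/Plec (3.87) and Csprs 1435792_at (3.60). In 17 of the 37 the mock mean at 150-180 min lay under the filter at log2 4, so those differences start from background. Nearest to the threshold, Hoxd3/Hoxd4 (1450209_at, IFN gamma 1.14) and Acaa1a/Acaa1b (1416947_s_at, IFN alpha 1.09) were just inside. H2-Q6/H2-Q8 (1431008_at, IFN alpha 0.90) and Arxes1/Arxes2 (1428333_at, IFN gamma 0.80) were just outside.

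**Figure D1:**
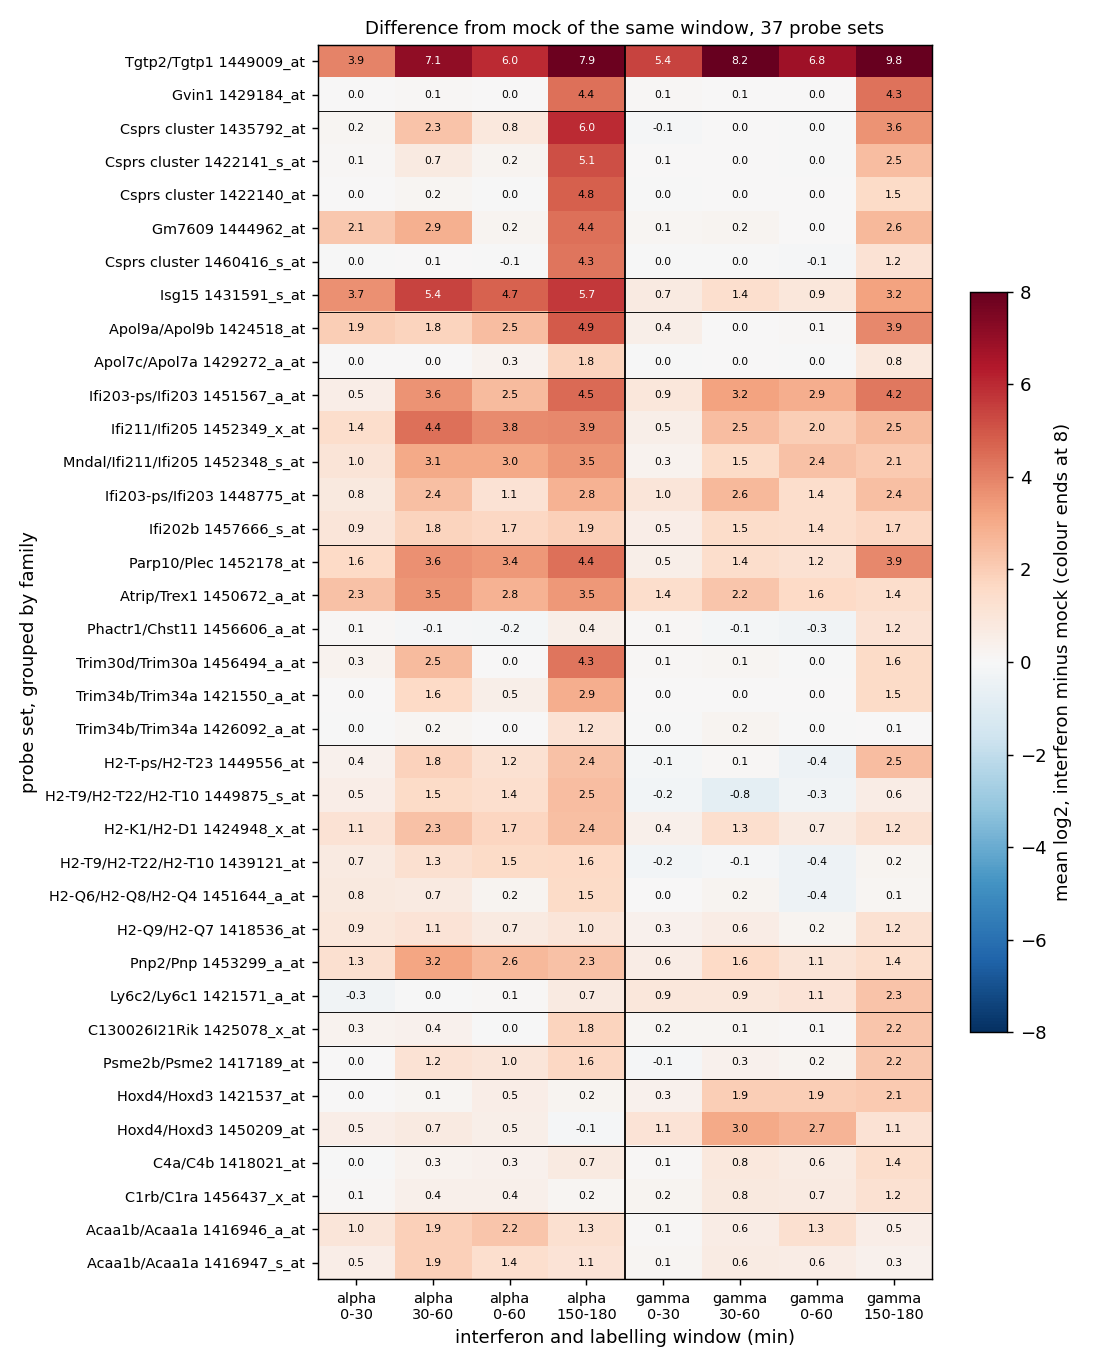
Group mean log2 value with interferon minus mock of the same labelling window, for the 37 probe sets (rows, grouped by family and named without LOC and most Gm symbols) and both interferons in 4 windows (columns); each mean is over 3 arrays. Tgtp1/Tgtp2 reached 9.81 with IFN gamma, the Gvin1 row and the Csprs rows 1422140_at and 1460416_s_at are near 0 in the 3 early windows, all 5 Csprs rows are 1.17 to 5.95 above mock at 150-180 min, and the Hoxd3/Hoxd4 rows are high with IFN gamma.

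The earlier windows were not used to choose the probe sets and were tested. Of the 37, 35 passed the filter (log2 above 4 in at least 3 arrays), and 1429272_a_at (Apol7a, Apol7c and Gm8221) and 1426092_a_at (Trim34a and Trim34b) did not. A probe set was called where limma's adjusted p over all 21874 tested was under 0.05. For 5 of the 35 (Gvin1, Csprs 1422141_s_at, 1422140_at and 1460416_s_at, and Trim34 1421550_a_at) the filter was passed only with the 150-180 min arrays that also chose them. Without these 5, IFN alpha raised 22 of 30 at 30-60 min, and the number raised in each other comparison with mock was the same. The 2 calls lost, Csprs 1422141_s_at and Trim34 1421550_a_at, also stand among the 13 and the 6 given below for IFN alpha. At 0-30 min IFN alpha raised 10 of the 35 (all probe sets: 0.338% called higher) and IFN gamma 2 (0.539%). At 30-60 min 24 rose with IFN alpha (1.84%) and 16 with IFN gamma (2.98%), 11 of them with both (all probe sets: 0.818%), 13 called with IFN alpha and not IFN gamma (1.02%), and 5 called with IFN gamma and not IFN alpha (2.16%). At 0-60 min it was 18 (1.39%) and 14 (2.86%). With IFN alpha 6 were called at 30-60 min and not at 0-60 min (all probe sets: 0.736%) and 0 the other way (0.279%), and with IFN gamma 3 (1.12%) and 1 (1.01%). None was called lower than mock in these 6 comparisons (all probe sets: 0%, 0.0274%, 0.155%, 1.37%, 0.032% and 1.44%, in the same order), where limma gave an unadjusted p under 0.05 for a lower value to 1 (H2-T9/H2-T10/H2-T22 1449875_s_at, IFN gamma at 30-60 min).

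Median differences over the 35 were 0.54 and 0.18 at 0-30 min (IFN alpha, then IFN gamma), 1.79 and 0.58 at 30-60 min, and 0.99 and 0.57 at 0-60 min, against medians of -0.05 to 0.06 over all 21874. Every interferon array lay above every mock array for 19 and 11 of the 35 at 0-30 min (all probe sets: 5.02% and 5.86%), for 25 and 22 at 30-60 min (5.68% and 7.37%), and for 19 and 14 at 0-60 min (4.64% and 5.88%). With the array numbers as a replicate block within windows the 2 calls for IFN gamma at 0-30 min became 5 (all probe sets: 124 became 239), with Atrip/Trex1, Pnp/Pnp2 and Ly6c1/Ly6c2 added. Fitted on the 9 arrays of the 0-60 min window alone, whose arrays agreed least, 26 passed the filter, and 10 (IFN alpha) and 7 (IFN gamma) of these were called. In the fit to all windows without mock array 1 it was 17 and 13 of the 35.

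Between the interferons directly, 3 were higher and 1 lower with IFN alpha than with IFN gamma at 0-30 min (all probe sets: 0.137% and 0.37%), 18 and 3 at 30-60 min (2.02% and 2.14%), and 9 and 3 at 0-60 min (1.47% and 1.18%). The 4 calls at 0-30 min became 8 with the replicate block (all probe sets: 111 became 213), with Tgtp1/Tgtp2 (higher with IFN gamma), Parp10/Plec, Ifi211/Ifi205 and Pnp/Pnp2 added. With the block the 21 at 30-60 min became 24, with Tgtp1/Tgtp2 and C4a/C4b (both higher with IFN gamma) and Atrip/Trex1 added, and the 12 at 0-60 min became 15, with Atrip/Trex1, Psme2 and Acaa1a/Acaa1b (1416946_a_at) added. The 12 at 0-60 min became 3 on that window's arrays alone. When the low-value filter used the arrays of the first 3 windows alone, 30 were tested. The 18 higher with IFN alpha at 30-60 min then became 16, and the other counts between the interferons were the same. The 3 higher with IFN gamma at 30-60 min were both Hoxd3/Hoxd4 probe sets and Ly6c1/Ly6c2.

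**Figure D2:**
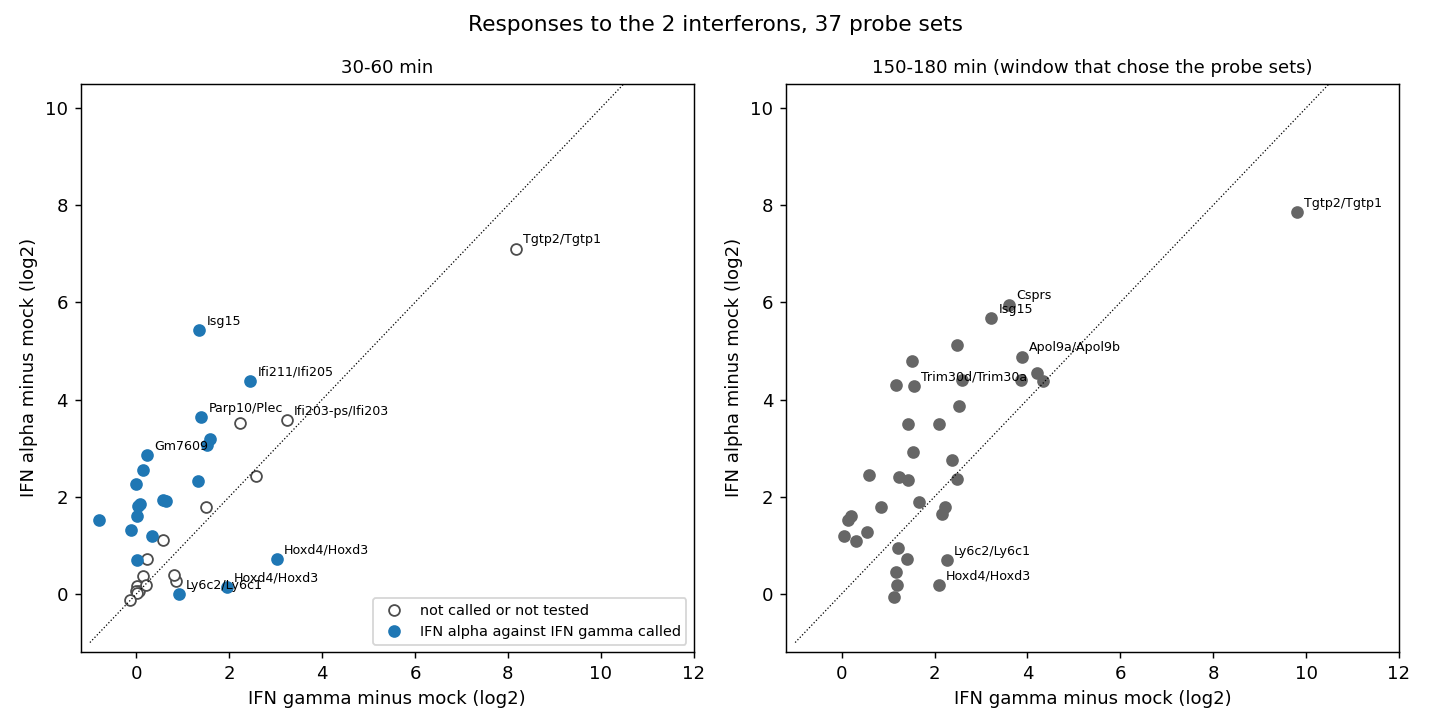
Each point is 1 of the 37 probe sets, with its mean difference from mock under IFN gamma (horizontal, log2) and IFN alpha (vertical, log2) at 30-60 min (left) and 150-180 min (right); the dotted line marks equal responses and filled points on the left are those called different between the interferons. Both axes share mock arrays, and the right panel is the window that chose the probe sets; Isg15 stands 4.07 higher with IFN alpha at 30-60 min, and the Hoxd3/Hoxd4 points have a difference of -1.79 and -2.30, higher with IFN gamma.

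Tgtp1 and Tgtp2 encode near-identical GTPases of the IRG family, which act on the vacuoles of intracellular parasites. Their probe set (1449009_at) was at background in mock at 0-30 min (3.91, 4.06 and 3.97), and read 8.58, 7.46 and 7.73 with IFN alpha and 9.70, 9.11 and 9.39 with IFN gamma. The 3 groups did not overlap. The differences from mock were 3.94 ± 0.46 (adjusted p = 1.87e-06) and 5.42 ± 0.46 (adjusted p = 1.62e-09) (limma, n = 3 arrays per group). At 30-60 min the arrays read 3.70, 3.11 and 3.15 in mock, 10.32, 10.14 and 10.83 with IFN alpha and 11.47, 11.46 and 11.53 with IFN gamma. Both responses grew from the first to the second window, by 3.16 ± 0.65 (adjusted p = 0.00701) with IFN alpha and 2.75 ± 0.65 (adjusted p = 0.0245) with IFN gamma. The IFN gamma level was above the IFN alpha level in all arrays of both windows, and the difference between the interferons, -1.47 ± 0.46 (adjusted p = 0.385) and -1.06 ± 0.46 (adjusted p = 0.334), was called with the replicate block (adjusted p = 0.00982 and 0.0287) and not without it. At 0-60 min the mock arrays spread from 2.66 to 5.80 and the interferon arrays from 9.17 to 11.24. At 150-180 min the arrays read 11.84, 11.82 and 11.80 with IFN alpha and 13.83, 13.74 and 13.74 with IFN gamma, against 4.03, 3.92 and 3.93 in mock, so the IFN gamma arrays stood above all others. Those means are 232 and 897 times the mock background.

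Gvin1, with its copy Gm4070, is a very large interferon-inducible GTPase, and its probe set (1429184_at) was at the background level until 150-180 min. All 27 arrays of the first 3 windows lay between 2.56 and 2.85, where no comparison was called and a response below background would not be seen (adjusted p 0.924 to 1). At 150-180 min it read 6.64, 7.28 and 7.16 with IFN alpha and 6.59, 7.23 and 7.11 with IFN gamma, against 2.62, 2.64 and 2.64 in mock. The interferon arrays overlapped each other and lay far above mock.

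Isg15, a ubiquitin-like protein that is joined to other proteins in the antiviral response, is read by 1431591_s_at together with Gm9706. The arrays at 0-30 min read 5.63, 5.39 and 5.53 in mock, 9.41, 9.06 and 9.08 with IFN alpha and 6.50, 6.12 and 6.05 with IFN gamma. IFN alpha was above both other groups without overlap (3.67 ± 0.31 (adjusted p = 2.89e-09) over mock, and 2.96 ± 0.31 (adjusted p = 3.81e-07) over IFN gamma). At 30-60 min mock read 4.67, 4.63 and 4.46, IFN alpha 10.08, 9.98 and 9.97 and IFN gamma 5.91, 5.99 and 5.93. IFN alpha raised it by 5.42 ± 0.31 (adjusted p = 3.87e-14) and IFN gamma by 1.36 ± 0.31 (adjusted p = 0.00534), although the IFN gamma mean was 5.94, against 6.22 at 0-30 min, and mock had fallen by 0.93 (adjusted p = 0.0113). The difference of 4.07 ± 0.31 (adjusted p = 6.52e-11) between the interferons was the largest of the 35 tested in that window. At 0-60 min the excess with IFN gamma was 0.94 ± 0.31 (adjusted p = 0.0861), called with the replicate block (adjusted p = 0.00188) and without IFN gamma array 1 (0.0434), IFN gamma array 3 (0.0129) or mock array 2 (0.044). Gm9706 has a probe set of its own (1453939_x_at), which rose by 2.05 ± 0.24 (adjusted p = 2.27e-07) with IFN alpha at 30-60 min, while IFN gamma gave 0.23 ± 0.24 (adjusted p = 0.881).

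Apol9a and Apol9b, of the apolipoprotein L family of lipid-binding proteins, differed in time between the interferons. Their probe set (1424518_at) read 4.95, 4.81 and 4.60 with IFN alpha at 0-30 min, against 2.80, 2.94 and 2.80 in mock and 3.10, 3.40 and 3.37 with IFN gamma. The IFN alpha arrays lay above all others. The IFN gamma arrays also lay above mock without overlap, but under the filter at log2 4, and IFN gamma was not called in any of the 3 early windows. IFN alpha raised it by 1.94 ± 0.19 (adjusted p = 6.12e-08) at 0-30 min, 1.81 ± 0.19 (adjusted p = 3.44e-08) at 30-60 min and 2.49 ± 0.19 (adjusted p = 6.21e-11) at 0-60 min. IFN gamma gave 0.03 ± 0.19 (adjusted p = 0.997) at 30-60 min, and the difference between the interferons was called in all 3 windows (1.5, 1.77 and 2.40). At 150-180 min, in contrast, the arrays read 6.95, 6.77 and 6.99 with IFN gamma, 7.97, 8.0 and 7.77 with IFN alpha and 3.11, 2.88 and 3.11 in mock. The second Apol probe set (1429272_a_at; Apol7a, Apol7c and Gm8221) stayed under the filter, with its highest array at 4.16 (IFN alpha, 150-180 min).

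**Figure D3:**
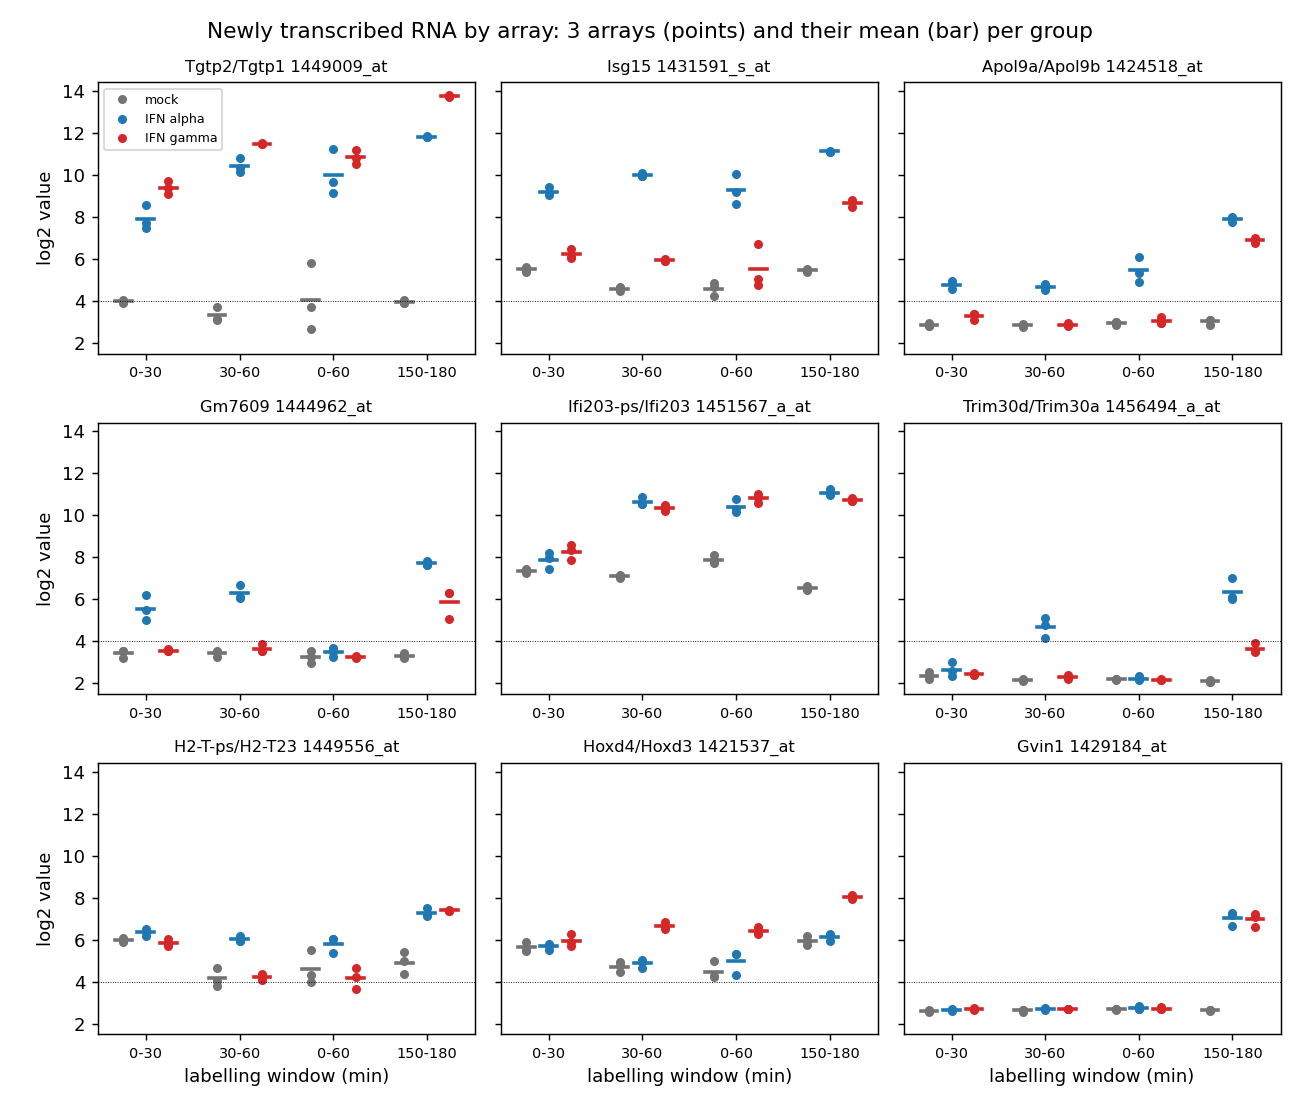
Log2 values of 9 probe sets on every array (points) with the mean of 3 arrays (bars), by labelling window and treatment; the dotted line is the filter at log2 4. Tgtp1/Tgtp2 is high with both interferons from 0-30 min, Isg15 and Apol9a/Apol9b are higher with IFN alpha, Hoxd3/Hoxd4 with IFN gamma, and Gvin1 stays between 2.56 and 2.85 until 150-180 min.

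The Csprs cluster, copies of a component of the Sp100-rs gene, is read by 5 probe sets that list up to 7 symbols. All 5 were 4.30 to 5.95 above mock with IFN alpha at 150-180 min and 1.17 to 3.60 with IFN gamma, but their timing differed. 1444962_at (Gm7609 and LOC101055663) read 6.20, 5.48 and 5.0 with IFN alpha at 0-30 min against 3.22, 3.53 and 3.53 in mock, and 6.05, 6.71 and 6.10 against 3.25, 3.51 and 3.52 at 30-60 min. Neither pair of groups overlapped, and the rises were 2.13 ± 0.26 (adjusted p = 5.14e-06) and 2.86 ± 0.26 (adjusted p = 1.91e-09). At 0-60 min, which covers both intervals at the lower 4sU concentration, the same probe set read 3.52, 3.70 and 3.25 with IFN alpha and 3.53, 2.96 and 3.24 in mock. Those groups overlapped, and the difference was 0.25 ± 0.26 (adjusted p = 0.733). The Csprs probe set 1435792_at read 4.53, 4.80 and 5.23 with IFN alpha at 30-60 min against 2.56, 2.66 and 2.55 in mock, a rise of 2.26 ± 0.27 (adjusted p = 3.21e-07). Its IFN alpha arrays at 0-30 min (4.88, 3.50 and 3.94) overlapped mock (3.45, 4.25 and 4.07), and mock fell by 1.33 between these windows. At 0-60 min its difference of 0.82 with IFN alpha was called without IFN alpha array 3 (1.07, adjusted p = 0.0485). 1422141_s_at rose by 0.70 ± 0.15 (adjusted p = 0.00616) with IFN alpha at 30-60 min, from 2.70 to 3.40; all its arrays of the first 3 windows lay under log2 4, and it was tested through its 150-180 min arrays alone; the call was lost without IFN alpha array 1 (adjusted p = 0.0606) or array 3 (0.074). 1422140_at and 1460416_s_at were not called in any of the 3 windows, and at 30-60 min their 9 arrays lay between 2.05 and 2.67. With IFN gamma the 5 probe sets gave -0.11 to 0.23 in the 3 windows, with no call.

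The Ifi200 genes encode PYHIN proteins that bind DNA and sense or respond to it in the nucleus and cytoplasm. All 5 of their probe sets rose with both interferons at 30-60 min and at 0-60 min. Ifi202b (1457666_s_at, with LOC100044068) had the highest mean of the family and was already high in mock (11.73, 11.36 and 11.67 at 30-60 min). It read 13.48, 13.22 and 13.45 with IFN alpha and 13.31, 12.78 and 13.16 with IFN gamma, both above mock without overlap, for rises of 1.79 ± 0.16 (adjusted p = 5.15e-10) and 1.5 ± 0.16 (adjusted p = 2.13e-08). The Ifi202b probe set with 1 symbol (1421551_s_at) rose by 2.08 ± 0.17 (adjusted p = 2.55e-10) and 1.43 ± 0.17 (adjusted p = 5.23e-07) there.

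For Ifi203 (1451567_a_at, with Ifi203-ps and LOC symbols) the arrays at 0-30 min read 7.34, 7.25 and 7.43 in mock, 8.20, 7.46 and 7.99 with IFN alpha and 8.60, 7.85 and 8.35 with IFN gamma. It was 1 of the 2 probe sets called with IFN gamma at that time (0.93 ± 0.18 (adjusted p = 0.00404)), a call lost without IFN gamma array 1 (adjusted p = 0.0905). At 30-60 min mock read 7.17, 7.11 and 7.0, IFN alpha 10.56, 10.55 and 10.88 and IFN gamma 10.28, 10.47 and 10.23, with both interferons far above mock. The responses had grown by 3.03 ± 0.25 (adjusted p = 2.06e-09) and 2.31 ± 0.25 (adjusted p = 5.52e-07) since 0-30 min. The other Ifi203 probe set (1448775_at) started under the filter (mock mean 3.47 at 30-60 min) and rose to 5.89 and 6.03, by 2.43 ± 0.27 (adjusted p = 7.67e-08) and 2.57 ± 0.27 (adjusted p = 1.99e-08). Its call with IFN alpha at 0-60 min (1.15) was lost without mock array 1 (adjusted p = 0.0554), mock array 3 (0.0506) or IFN alpha array 2 (0.173).

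Ifi211/Ifi205 (1452349_x_at) favoured IFN alpha: at 30-60 min it read 9.64, 9.21 and 9.70 with IFN alpha, 7.78, 7.39 and 7.61 with IFN gamma and 5.58, 4.75 and 5.08 in mock, and the 3 groups did not overlap. The rise with IFN alpha was 4.38 ± 0.26 (adjusted p = 7.07e-14) and that with IFN gamma 2.45 ± 0.26 (adjusted p = 2.55e-08), a difference of 1.92 ± 0.26 (adjusted p = 3.21e-06). Mock had fallen by 1.18 since 0-30 min. 1452348_s_at, which adds Mndal and Ifi204, rose by 3.06 ± 0.30 (adjusted p = 8.19e-09) and 1.52 ± 0.30 (adjusted p = 0.00104). At 0-30 min it was called with IFN alpha with the replicate block (1.05, adjusted p = 0.0131) and not without it (0.376). Ifi204 by itself (1419603_at) rose by 2.01 and 1.91 at 30-60 min, and Mndal (1452231_x_at) by 1.09 with IFN alpha, while IFN gamma gave 0.17 for Mndal.

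Trim30a/Trim30d and Trim34a/Trim34b, of the tripartite motif proteins that act in innate immunity and against retroviruses, were called with IFN alpha at 30-60 min and in none of the other early comparisons with mock. Trim30 (1456494_a_at) read 4.17, 5.12 and 4.80 with IFN alpha, 2.20, 2.32 and 2.39 with IFN gamma and 2.12, 2.19 and 2.16 in mock. All 3 IFN alpha arrays were above the rest, by 2.54 ± 0.21 (adjusted p = 1.2e-10) over mock and 2.39 ± 0.21 (adjusted p = 8.21e-10) over IFN gamma. At 0-60 min it read 2.21, 2.34 and 2.16 with IFN alpha, next to 2.19, 2.20 and 2.19 in mock. Trim34 (1421550_a_at) rose by 1.61 ± 0.19 (adjusted p = 2.81e-07), from 2.23, 2.24 and 2.23 to 4.43, 3.17 and 3.91, with 1 of the 6 arrays past the filter. The second Trim34 probe set (1426092_a_at) was not tested and had its highest array at 4.18 (IFN alpha, 150-180 min). Among probe sets with 1 symbol at 30-60 min, both Trim30a probe sets rose by 4.04 and 4.05 with IFN alpha, and both Trim30d probe sets by 2.13 and 2.15. With IFN gamma the Trim30a probe set 1451860_a_at rose by 0.98 ± 0.23 (adjusted p = 0.00585) and 1417961_a_at gave 1.09 ± 0.33 (adjusted p = 0.0511), while both for Trim30d gave 0.04 and 0.08.

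MHC class I molecules present peptides from inside the cell to T cells, and their 6 shared probe sets were called higher with IFN alpha than with IFN gamma in 0 cases at 0-30 min (limma's unadjusted p was under 0.05 for 5 of them), 4 at 30-60 min and 4 at 0-60 min. Against mock, 5 of the 6 rose with IFN alpha at 30-60 min and 1 with IFN gamma (H2-K1/H2-D1). H2-T23 (1449556_at, with H2-T-ps), the mouse counterpart of HLA-E, read 5.92, 5.94 and 6.20 with IFN alpha at 30-60 min, 4.11, 4.25 and 4.38 with IFN gamma and 3.81, 4.65 and 4.05 in mock. The IFN alpha arrays lay above both others, by 1.85 ± 0.29 (adjusted p = 6.59e-05) over mock. The level with IFN alpha was no higher than at 0-30 min (6.50, 6.38 and 6.18), while mock fell by 1.81 from 6.09, 5.94 and 5.92. At 150-180 min both interferons gave like levels (7.51, 7.22 and 7.13 and 7.39, 7.44 and 7.39). Its IFN alpha call at 0-60 min (1.22) was lost without any of mock arrays 2 and 3 and IFN alpha arrays 1 and 2 (adjusted p 0.0541 to 0.129).

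The H2-T9/H2-T10/H2-T22 probe set with the higher signal (1449875_s_at) read 6.83, 7.14 and 7.10 with IFN alpha, 4.80, 4.26 and 5.07 with IFN gamma and 5.35, 5.59 and 5.59 in mock at 30-60 min. The IFN alpha arrays were above mock and the IFN gamma arrays below it. IFN alpha raised it by 1.51 ± 0.26 (adjusted p = 0.000223). The value with IFN gamma, -0.80 ± 0.26 (adjusted p = 0.0826), was called lower with the replicate block (adjusted p = 0.0458) and without IFN gamma array 3 (-0.98, adjusted p = 0.0469). The difference between the interferons was 2.31 ± 0.26 (adjusted p = 1.27e-07), and at 150-180 min IFN gamma gave 0.60 over mock against 2.46 with IFN alpha. 1439121_at, with the same symbols and a lower signal, also rose with IFN alpha (1.31 ± 0.26 (adjusted p = 0.00186)) and gave -0.11 ± 0.26 (adjusted p = 0.974) with IFN gamma.

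H2-K1/H2-D1 (1424948_x_at), the classical class I genes, rose by 2.33 ± 0.26 (adjusted p = 1.25e-07) with IFN alpha and 1.32 ± 0.26 (adjusted p = 0.00106) with IFN gamma at 30-60 min, while mock fell by 1.24. Its IFN alpha call at 0-30 min (1.13, adjusted p = 0.048) was lost without any 1 of 5 of the 6 arrays compared (adjusted p 0.117 to 0.63; mock arrays 2 and 3 and all IFN alpha arrays). At 0-60 min IFN gamma gave 0.75 (adjusted p = 0.108), called with the replicate block (0.0367) and without mock array 1 (1.13, 0.00445). Of 13 probe sets of H2-K1 or H2-D1 alone 7 passed the filter, and these 7 rose at 30-60 min, by 1.57 to 2.25 with IFN alpha and 0.85 to 1.52 with IFN gamma. H2-Q7/H2-Q9 (1418536_at) rose by 1.10 ± 0.22 (adjusted p = 0.00241) with IFN alpha, a call lost without mock array 3 (0.063). It was also called with IFN alpha at 0-30 min (0.88) and 0-60 min (0.69) with the replicate block (adjusted p = 0.0366 and 0.0463), and without IFN alpha array 3 at 0-60 min (0.0358). H2-Q4/H2-Q6/H2-Q8 (1451644_a_at) gave 0.73 ± 0.27 (adjusted p = 0.291), called without IFN alpha array 1 (adjusted p = 0.0299).

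Psme2, a subunit of the PA28 proteasome activator that serves antigen processing, is read with Psme2b by 1417189_at. It read 7.42, 6.92 and 7.53 with IFN alpha and 6.30, 6.01 and 6.0 in mock at 30-60 min, without overlap, a rise of 1.19 ± 0.23 (adjusted p = 0.00129) against 0.33 ± 0.23 (adjusted p = 0.72) with IFN gamma. The IFN alpha mean was 7.44 at 0-30 min and 7.29 at 30-60 min, while mock fell by 1.28. At 150-180 min the order was the other way, with 9.65, 9.31 and 9.29 with IFN gamma above 9.09, 8.86 and 8.70 with IFN alpha and 7.38, 7.21 and 7.16 in mock. Its call with IFN alpha at 0-60 min (0.99) was lost without IFN alpha array 1 or 2 or mock array 2 (adjusted p 0.0588 to 0.147).

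The pairs of unlike symbols can be set beside probe sets of the single genes. Parp10, a mono-ADP-ribosyltransferase, and Plec, which encodes the cytoskeletal linker plectin, are neighbours read by 1452178_at. The arrays at 30-60 min read 3.85, 4.20 and 3.77 in mock, 7.36, 7.54 and 7.82 with IFN alpha and 4.91, 5.29 and 5.81 with IFN gamma. The groups did not overlap, and the rises were 3.64 ± 0.30 (adjusted p = 1.87e-10) and 1.40 ± 0.30 (adjusted p = 0.00296). The 3 Plec probe sets gave 0.08, 0.14 and -0.42 with IFN alpha in that window, and -0.00, -0.07 and -0.54 with IFN gamma. The last of them (1437554_at) lay near or under log2 4 there, with means of 4.00 in mock, 3.58 with IFN alpha and 3.46 with IFN gamma. The Parp10/Plec call with IFN alpha at 0-30 min (1.59) was lost without mock array 2 (adjusted p = 0.0684) or IFN alpha array 1 (0.117), and that with IFN gamma at 0-60 min (1.22) without IFN gamma array 2 (0.161).

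Trex1, the main DNA 3′ exonuclease of the cytosol, and Atrip, a checkpoint kinase partner, are neighbours read by 1450672_a_at. At 0-30 min the arrays read 6.21, 5.58 and 5.78 in mock, 8.39, 8.16 and 7.99 with IFN alpha and 7.22, 7.23 and 7.31 with IFN gamma, and the groups did not overlap. IFN alpha raised it by 2.33 ± 0.38 (adjusted p = 0.000576). IFN gamma gave 1.40 ± 0.38 (adjusted p = 0.136), called with the replicate block (adjusted p = 0.0025). At 30-60 min both were called, at 3.51 ± 0.38 (adjusted p = 6.3e-08) and 2.24 ± 0.38 (adjusted p = 0.000127), with mock down by 1.34. The Atrip probe set 1434321_at gave 0.27 ± 0.20 (adjusted p = 0.927) and -0.06 ± 0.20 (adjusted p = 0.991). Its means there were 3.36 in mock, 3.63 with IFN alpha and 3.30 with IFN gamma, under log2 4, where a response below background would not be seen. At 0-60 min the call with IFN gamma (1.62) was lost without mock array 3 (adjusted p = 0.0567) or IFN gamma array 2 (0.117).

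Phactr1, an actin and phosphatase regulator, and Chst11, a chondroitin sulfotransferase, lie on different chromosomes and share 1456606_a_at. It was not called in the early windows, where its differences from mock ran from -0.26 to 0.07. At 150-180 min it read 5.57, 5.65 and 5.86 with IFN gamma and 4.42, 4.28 and 4.88 in mock. In that window 2 Phactr1 probe sets were 1.40 and 0.67 above mock with IFN gamma, and the Chst11 probe set 1428902_at was 0.38 below it (-0.38).

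**Figure D4:**
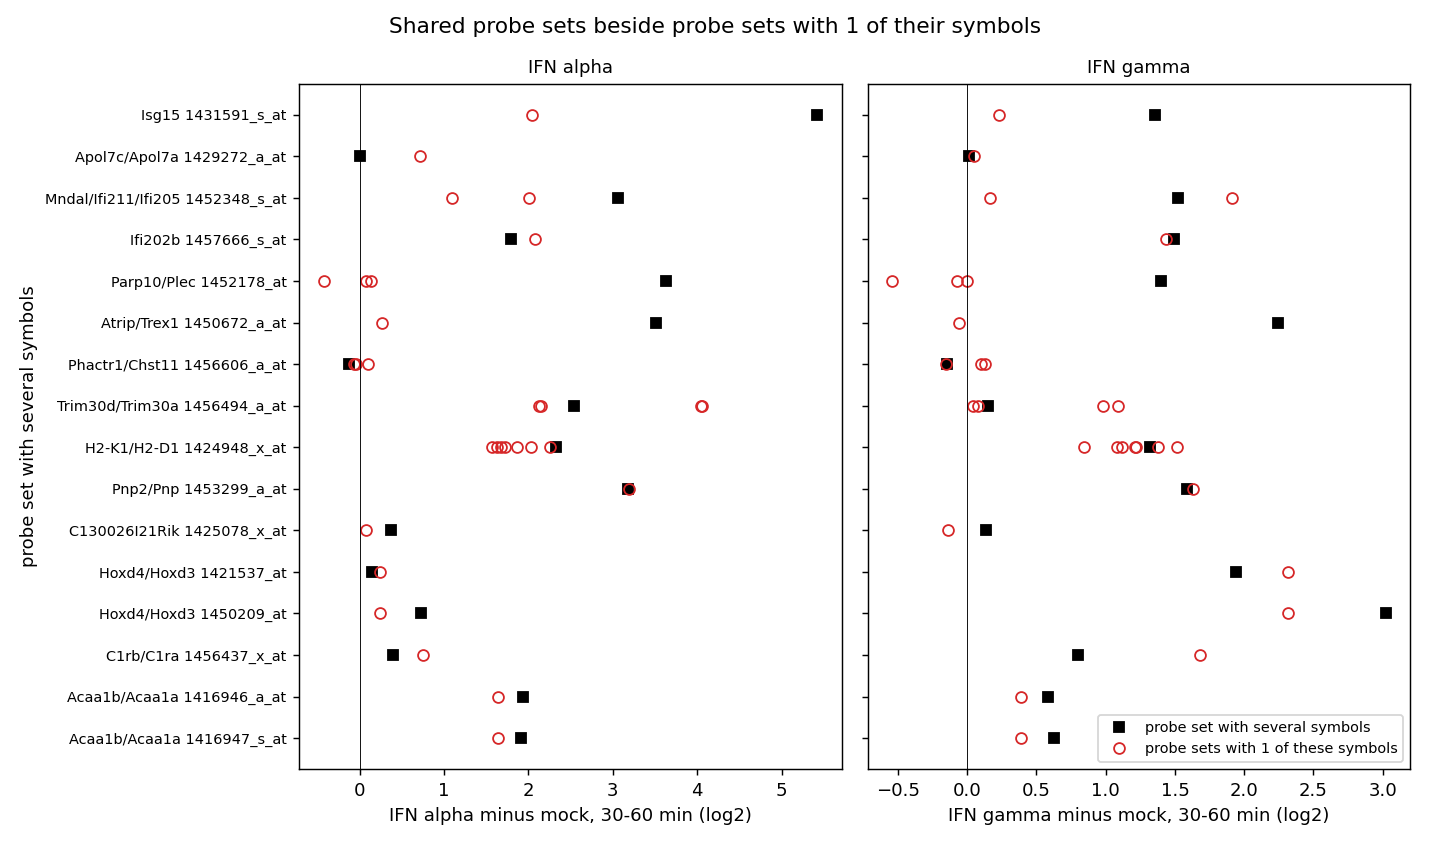
Mean log2 difference from mock at 30-60 min for the 16 shared probe sets with at least 1 companion past the filter (black squares) and for the companions, probe sets with just 1 of those symbols (red circles), with IFN alpha (left) and IFN gamma (right). The Plec and Atrip circles lie between -0.54 and 0.27 while Parp10/Plec and Atrip/Trex1 lie between 1.40 and 3.64. The levels of the Atrip circle and of the Plec circle 1437554_at were near or under log2 4. The H2-K1/H2-D1, Pnp, Ifi202b and Hoxd3 circles lie near their squares or to the same side.

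The probe sets shared by Hoxd3 and Hoxd4, neighbouring homeobox genes of the HoxD cluster that pattern the embryo, were raised by IFN gamma. Hoxd4 has no probe set of its own here, so its part in these values is not known. 1421537_at read 6.50, 6.84 and 6.66 with IFN gamma at 30-60 min, 4.64, 4.92 and 5.05 with IFN alpha and 4.80, 4.93 and 4.44 in mock. IFN alpha overlapped mock and all IFN gamma arrays were above both. The difference from mock was 1.94 ± 0.23 (adjusted p = 3.03e-07) with IFN gamma and 0.15 ± 0.23 (adjusted p = 1) with IFN alpha, and that between the interferons -1.79 ± 0.23 (adjusted p = 1.53e-06). At 0-30 min IFN gamma gave 0.33 ± 0.23 (adjusted p = 1), and the response grew by 1.62 ± 0.33 (adjusted p = 0.00479) to the next window. At 0-60 min the excess with IFN gamma was 1.94 ± 0.23 (adjusted p = 4.27e-07).

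The other Hoxd3/Hoxd4 probe set (1450209_at) read 4.96, 6.71 and 7.01 with IFN gamma at 30-60 min, 2.99, 4.48 and 4.33 with IFN alpha and 3.03, 3.03 and 3.56 in mock. It spread more between arrays, without overlap of IFN gamma with either group, and rose by 3.02 ± 0.47 (adjusted p = 3.24e-05). At 0-30 min it read 5.14, 5.44 and 5.45 with IFN gamma and 4.30, 3.98 and 4.44 in mock, without overlap, and the difference of 1.10 ± 0.47 (adjusted p = 1) was not called. At 150-180 min its IFN gamma arrays (5.72, 6.46 and 6.52) overlapped mock (5.21, 4.13 and 5.94). Hoxd3 by itself (1437664_at) rose by 2.32 ± 0.21 (adjusted p = 1.46e-09) with IFN gamma and gave 0.25 ± 0.21 (adjusted p = 0.96) with IFN alpha. Its group mean at 150-180 min was 6.59 with IFN gamma, 4.36 with IFN alpha and 4.26 in mock.

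Ly6c1/Ly6c2 (1421571_a_at), surface proteins best known from monocytes, were higher with IFN gamma. The arrays at 30-60 min read 3.15, 4.17 and 4.29 with IFN gamma, 2.89, 3.07 and 2.90 with IFN alpha and 2.89, 3.11 and 2.89 in mock, near or under the filter throughout. IFN gamma lay above mock in every array, by 0.91 ± 0.24 (adjusted p = 0.0199), a call lost without any 1 of mock arrays 1 and 3 and IFN gamma arrays 2 and 3 (adjusted p 0.0721 to 0.173). At 0-60 min the rise was 1.12 ± 0.24 (adjusted p = 0.00305). At 0-30 min it was 0.92 (adjusted p = 0.0897), called with the replicate block (0.0125) and without mock array 1 (0.00448). The interferons differed in all 3 windows, with IFN alpha minus IFN gamma at -0.92 to -1.19. The level at 150-180 min was 5.09, 5.45 and 5.39 with IFN gamma. Leukocyte markers other than Cd14 were under the filter in these cells.

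Complement genes were called with IFN gamma. C4a/C4b (1418021_at), the complement component that forms part of the C3 convertase, rose by 0.85 ± 0.21 (adjusted p = 0.0111) at 30-60 min, and C1ra/C1rb (1456437_x_at), the protease of the first complement complex, by 0.80 ± 0.20 (adjusted p = 0.0108). C1ra/C1rb arrays read 6.11, 6.80 and 5.92 with IFN gamma and 5.22, 5.83 and 5.38 in mock, all above mock. Each call was lost without mock array 1 or 3 or 1 IFN gamma array (array 1 for C4, array 2 for C1r; adjusted p 0.052 to 0.0959 for C4 and 0.0601 to 0.159 for C1r). At 0-60 min C1ra/C1rb rose by 0.73, a call lost without mock array 1 or any IFN gamma array (adjusted p 0.0541 to 0.117). C4a/C4b gave 0.63 there, called with the replicate block (0.0102) and without IFN gamma array 2 (0.0433). Between the interferons at 30-60 min C4a/C4b gave -0.59 ± 0.21 (adjusted p = 0.145), called with the replicate block (adjusted p = 0.0215), and C1ra/C1rb -0.41 ± 0.20 (adjusted p = 0.44), with no call in either fit. C1ra by itself (1417009_at) rose by 1.68 ± 0.21 (adjusted p = 9.91e-07) with IFN gamma and gave 0.76 ± 0.21 (adjusted p = 0.0602) with IFN alpha at 30-60 min, a difference between the interferons of -0.93 ± 0.21 (adjusted p = 0.00576). At 0-60 min it rose by 2.08 ± 0.21 (adjusted p = 2.49e-08) with IFN gamma and 0.98 ± 0.21 (adjusted p = 0.00724) with IFN alpha, and the interferons differed by -1.10 ± 0.21 (adjusted p = 0.00145).

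Enzymes of metabolism were among the members too. Pnp/Pnp2 (1453299_a_at), purine nucleoside phosphorylase of the purine salvage pathway, read 9.99, 9.57 and 10.02 with IFN alpha, 8.45, 8.03 and 8.31 with IFN gamma and 6.88, 6.42 and 6.74 in mock at 30-60 min. The 3 groups did not overlap, and the rises were 3.18 ± 0.25 (adjusted p = 4.43e-11) and 1.59 ± 0.25 (adjusted p = 3.4e-05), with mock down by 1.29 since 0-30 min. Pnp by itself (1416530_a_at) rose by 3.19 ± 0.22 (adjusted p = 4.45e-12) and 1.63 ± 0.22 (adjusted p = 4.78e-06). The shared probe set's IFN alpha call at 0-30 min (1.26) was lost without mock array 2 or 3 or IFN alpha array 1 (adjusted p 0.0734 to 0.165), and its IFN gamma call at 0-60 min (1.05) without mock array 1 or IFN gamma array 2 (0.0712 and 0.118). With the replicate block it was also called with IFN gamma at 0-30 min (0.57, adjusted p = 0.0041).

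Acaa1a/Acaa1b, the peroxisomal thiolase of fatty acid oxidation, rose with IFN alpha in both probe sets at 30-60 min. 1416947_s_at read 6.81, 6.58 and 7.07 with IFN alpha and 4.28, 5.34 and 5.10 in mock, without overlap, a rise of 1.91 ± 0.27 (adjusted p = 1.01e-05). 1416946_a_at rose by 1.94 ± 0.33 (adjusted p = 0.000227). Both differed between the interferons (1.28 and 1.35). Their differences from mock at 150-180 min were smaller, at 1.09 and 1.28. The levels with IFN alpha were not: the means were 6.82 and 5.48 at 30-60 min and 6.84 and 5.68 at 150-180 min. Mock means were 5.87 and 4.35 at 0-30 min, 4.91 and 3.54 at 30-60 min, and 5.75 and 4.41 at 150-180 min. The fall of mock between the first 2 of these windows was called for both. At 0-60 min 1416946_a_at was called with IFN gamma (1.27), a call lost without mock array 1 or 2 or IFN gamma array 3 (adjusted p 0.0607 to 0.112), whereas 1416947_s_at gave 0.57, called without mock array 1 (0.94, 0.0356). C130026I21Rik (1425078_x_at) was not called in the early windows; at 150-180 min it read 5.70, 5.46 and 4.26 with IFN alpha, 5.47, 5.39 and 5.88 with IFN gamma and 3.42, 3.63 and 3.02 in mock.

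From the first to the second window the response grew in 11 of the 35 with IFN alpha (all probe sets: 0.795%) and in 6 with IFN gamma (0.928%), and in none did it fall past the threshold (all probe sets: 0.032% and 0.146%; limma's unadjusted p was under 0.05 for a fall in 0 of the 35 with either). The 6 with IFN gamma became 3 without mock array 2 or IFN gamma array 2 at 0-30 min. When the low-value filter used the arrays of the first 3 windows alone, 30 were tested. The response then grew in 10 of the 30 with IFN alpha and in 6 with IFN gamma. Mock itself moved: 14 of the 35 fell and 3 rose between the windows, against 37.2% and 20.7% of all probe sets. Of the 24 called with IFN alpha at 30-60 min, 5 had a level with IFN alpha no higher than at 0-30 min (Apol9a/Apol9b, Atrip/Trex1, H2-T23, H2-K1/H2-D1 and Psme2), and of the 16 called with IFN gamma this held for 6. For Apol9a/Apol9b the IFN alpha means were 4.79 and 4.66.

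A list of 124 interferon-response genes can be set beside the shared probe sets. Of these, 65 were tested through probe sets with 1 symbol (Irgm1, Gbp2, Tap1, Psmb9, Oas2, Usp18, Ifit1, Mx1, Irf1 and others). The list holds relatives of the families above and also genes of other families. It was drawn up of interferon-response genes, so its counts do not measure kinship. At 0-30 min 23 of the 65 rose with IFN alpha (all probe sets: 0.338%) and 15 with IFN gamma (0.539%). At 30-60 min it was 52 (1.84%) and 36 (2.98%), and at 0-60 min 43 (1.39%) and 27 (2.86%). The 65 include probe sets of H2-K1, H2-D1, Ifi202b, Ifi204, Mndal, Apol7a, Trim30a and Trim30d. These are also symbols of the shared probe sets, so the lists are not separate sets of genes. The medians at 30-60 min were 2.09 and 1.09, against 1.79 and 0.58 for the 35 shared probe sets.

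Of the 35, 11 were not called with IFN alpha and 18 were not called with IFN gamma in any of the first 3 windows. Among these, 5 stood at least 1 above mock at 150-180 min with IFN alpha (Gvin1, 2 Csprs probe sets, C130026I21Rik and H2-Q4/H2-Q6/H2-Q8) and 14 with IFN gamma. The 14 included Gvin1, all 5 Csprs probe sets, Apol9a/Apol9b, Trim30, Trim34, H2-T23 and Psme2. For Gvin1 and 3 of the Csprs probe sets no array of the first 3 windows lay above log2 4.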

How the data were processed

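The authors deposited log2 expression values of 36 Affymetrix arrays in 12 groups of 3. Per the submitters' processing notes they used GCRMA, whose version is not given in the sources used here. GCRMA pulls probes without specific signal to a low floor, so differences from a value under log2 4 are over background. GEO's platform annotation gave 34945 of 45037 probe sets 1 symbol, 932 several and 9160 no symbol, without the 64 controls.

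Probe sets above log2 4 in at least 3 arrays (21874, of which 512 with several symbols) were fitted with limma 3.58.1 (R 4.3.3) with 1 mean per group over all 36 arrays and an intensity trend (24 residual and 5.35 prior degrees of freedom). P-values were adjusted by Benjamini-Hochberg over all probe sets, and a call is an adjusted p under 0.05. Errors are standard errors, with n = 3 arrays per group. The fit was tested on simulated data. The members were chosen on the 150-180 min contrasts, so these are described without tests. Members and lists were chosen with earlier results of these data known. The array values printed are, by rule, those of the 6 probe sets with the largest 150-180 min response to each interferon, the highest of each family, the 5 largest called early changes in each comparison with mock, the 3 largest differences between interferons in each direction and those nearest the threshold; the other array values were added after seeing them. RefSeq promoters and gene names were those of GRCm38.p6, the reference and not the sequence of NIH-3T3, and promoters were aligned globally with gaps (Biopython 1.88, Python 3.11.15). The protein comparison that had been planned was not run.

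Array numbers are shared by the treatments of a window. In the deviations from group means, all 9 same-numbered pairs of each of the first 3 windows correlated above 0.1 (0.187 to 0.606 at 0-30, 0.324 to 0.713 at 30-60 and 0.318 to 0.789 at 0-60 min), against 7 of 9 at 150-180 min (-0.294 to 0.707), so the pairing of numbers in the first 3 windows rests on the data. The alternatives were no low-value filter or one at 6, adding 16 before the logarithm, quantile or common median normalization, the arrays of the windows compared alone, no trend, array weights, the replicate block, and each array left out; a minimum difference of 1, the low-value filter on the arrays of the first 3 windows alone and the comparison of mock between windows were added after seeing the data.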

Additional observations from a re-analysis of the deposited data

Results flagged for a closer look

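The response differed between the 0-30 and 30-60 min windows for 17 results, each by limma's test of the change in the difference from mock (adjusted p over all probe sets, n = 3 arrays per group). With IFN alpha the response grew by 3.16 for Tgtp1/Tgtp2, 3.03 for Ifi203 (1451567_a_at), 2.95 for Ifi211/Ifi205, 2.26 for Trim30a/Trim30d, 2.08 for Csprs (1435792_at), 2.05 for Parp10/Plec, 2.01 for the Mndal, Ifi211, Ifi205 and Ifi204 probe set, 1.92 for Pnp/Pnp2, 1.76 for Isg15, 1.67 for Ifi203 (1448775_at) and 1.58 for Trim34a/Trim34b (1421550_a_at). The adjusted p-values ran from 2.06e-09 for Ifi203 to 0.0466 for Isg15. Trim34a/Trim34b (1421550_a_at) did not pass the low-value filter on the arrays of the first 3 windows alone. With that filter 10 responses to IFN alpha grew.

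With IFN gamma it grew by 2.75 for Tgtp1/Tgtp2, 2.31 for Ifi203 (1451567_a_at), 1.98 for Ifi211/Ifi205, 1.62 for Hoxd3/Hoxd4 (1421537_at), 1.57 for Ifi203 (1448775_at) and 0.95 for Ifi202b, with adjusted p from 5.52e-07 to 0.0261. The mock levels of Csprs (1435792_at), Isg15, Parp10/Plec, Ifi211/Ifi205, Pnp/Pnp2 and Hoxd3/Hoxd4 fell between the windows by 1.33, 0.93, 0.99, 1.18, 1.29 and 0.92, and those of Ifi203 (1448775_at) and Ifi202b rose by 0.86 and 0.42 (called by limma over all probe sets). The part of these changes in the growth was not tested.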

How the results depend on the processing

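No called difference from mock changed sign under any alternative. For calls between the interferons and for growth, the signs were not compared in this way. The 2 calls for IFN gamma at 0-30 min became 8 with array weights, 5 with the replicate block, 4 on that window's arrays alone and 1 with a minimum difference of 1. Over all probe sets the 124 calls there became 346, 239 and 190 under the first 3 of these. For IFN alpha against IFN gamma at 0-30 min the 4 calls became 13, 8 and 7 in the same order. The 111 over all probe sets became 350, 213 and 161. On the arrays of the 0-60 min window alone the 18 calls for IFN alpha became 10, the 14 for IFN gamma 7, and the 12 between the interferons 3. With array weights, whose fit stopped before its tolerance was met, the 11 and 6 responses that grew between windows became 20 and 12. The cause was not tested.

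With each array left out in turn, the calls ran from 7 to 10 (0-30 min), 23 to 24 (30-60 min) and 15 to 20 (0-60 min) for IFN alpha, and from 1 to 3, 13 to 16 and 11 to 14 for IFN gamma. Between the interferons they ran from 3 to 4, 17 to 21 and 10 to 13, and for growth from 8 to 12 and 3 to 6. The 37 probe sets became 36 to 38, 27 after adding 16 and 29 at a threshold of 1.5. Of 84 calls against mock, 17 were lost without some 1 array, 8 of them at 0-60 min. With the replicate block, calls for the 6 comparisons with mock were 12, 5, 24, 17, 19 and 17 (IFN alpha then IFN gamma at 0-30, 30-60 and 0-60 min), 10 results were gained as given beside them, and no other call against mock changed. Calls over all probe sets rose as well in these 6 comparisons, from 74, 124, 437, 950, 310 and 941 to 110, 239, 967, 2202, 955 and 3851. Between the interferons the block gave 8, 24 and 15 calls and for growth 15 and 9, and no call was lost. With the filter on the arrays of the first 3 windows, 30 were tested and 22 called with IFN alpha at 30-60 min. That filter also gave 19 calls between the interferons at 30-60 min and 10 responses to IFN alpha that grew. Signals under log2 4 limit the sizes of fold changes.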

Other observations

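Between the 0-60 min window (200 µM 4sU) and the 30-60 min window (500 µM), 6 probe sets were called with IFN alpha in the second and not in the first: Csprs 1435792_at and 1422141_s_at, Gm7609 (1444962_at), Trim30a/Trim30d, Trim34a/Trim34b (1421550_a_at) and H2-Q7/H2-Q9. Csprs 1422141_s_at and Trim34a/Trim34b (1421550_a_at) did not pass the low-value filter on the arrays of the first 3 windows alone. Both were tested only through arrays of the last window, which also chose the probe sets. Of all probe sets tested 0.736% had the pattern of a call at 30-60 min and not at 0-60 min. Among the 35, none had the reverse pattern with IFN alpha. For Trim30a/Trim30d (1456494_a_at) the difference from mock was 2.54 at 30-60 min and 0.04 at 0-60 min, while the Trim30a probe sets 1417961_a_at and 1451860_a_at, which do not share the Trim30d symbol, stood at 5.12 and 5.92 with IFN alpha at 0-60 min against 2.39 and 4.22 in mock. The windows differ in 4sU concentration and in length, which cannot be told apart here.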
